A study of Mus musculus with 8 samples.

Results

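Yap/Taz knockout hepatocytes were compared with wild-type hepatocytes on a soft hydrogel of 1 kPa, near the softness of healthy liver. The comparison took in 4 of the 8 RNA sequencing libraries of the series, chosen by their labels: 2 of wild-type and 2 of knockout cells on the soft gel. It covered all 14279 genes, of 56748 listed, that passed a filter on low counts. Both genotypes were C57BL/6J mice with Yap fl/fl and Taz fl/fl alleles, and the line also carried a ROSA26-LSL-tdTomato reporter by the methods. Knockout mice received AAV8-TBG-Cre by vein at an age of 7 to 8 weeks, and the mice called wild type received AAV8-TBG-Null. The TBG promoter is hepatocyte-specific, so other liver cells are not targeted. Primary hepatocytes were isolated 10 days after the virus and kept for 24 h on collagen-coated polyacrylamide. The design text calls the mice female, while the growth protocol and the methods call them male. Xist was present and the listed Y-linked genes had 0 counts in every library.

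YAP and its paralogue TAZ, encoded by Yap1 and Wwtr1, are transcriptional co-activators at the end of the Hippo pathway. They do not bind DNA themselves but act through TEAD factors, and the kinases LATS1 and LATS2 hold them in the cytoplasm. Tension in the actin cytoskeleton, as on a stiff substrate, brings them into the nucleus, where they drive matricellular, cytoskeletal and cell cycle genes. In the adult liver their activity is low in hepatocytes and high in bile duct cells.

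The wild-type soft libraries held 26442310 and 18324083 counts and the knockout soft libraries 25183704 and 19660694. A gene without a read could still hold up to 3 counts at 95% confidence, or 0.113 to 0.164 CPM in these libraries, and this limit covers counting error only. Levels below are normalized CPM, the counts of a gene relative to the TMM-scaled size of its library, given for wild-type replicates 1 and 2 and then for knockout replicates 1 and 2. Every adjusted p is from the quasi-likelihood test of edgeR, with the Benjamini-Hochberg method applied over all tested genes, and a gene changed when it was under 0.05 with an absolute log2 fold change over 0.5. The labels do not say whether replicates came from separate animals or cultures, so p-values measure the spread between these samples, which may be technical. The 2 genotypes also differed in the virus given, and the loss of Yap and Taz cannot be told apart from the presence of Cre.

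The knockout libraries labelled soft and stiff did not separate as the wild-type ones did. Between them 3 genes changed, 0.021% of those tested (Psme2, Psme2b and Mup16, with 1077 genes at an unadjusted p under 0.05). Chi-square per degree of freedom between knockout soft and knockout stiff libraries was 3.01 to 6.72, against 3.05 within the knockout soft pair and 4.47 within the knockout stiff pair. Between wild-type and knockout soft libraries it was 35.7 to 44.0. The paper reports, for hepatocytes of both genotypes on these gels, that loss of Yap/Taz abrogated the change of expression with stiffness. A lost response cannot be told apart here from a wrong gel label. The gel labels of the knockout libraries could therefore not be checked from their counts, and the libraries labelled soft are taken as labelled below. The soft comparison contrasts only libraries labelled soft, although all 8 share 1 estimate of the spread, whereas every difference between the gels given later rests mainly on wild-type levels.

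On the soft gel 952 genes changed, 6.67% of those tested. Of these, 288 rose in the knockout (2.02%) and 664 fell (4.65%), while an unadjusted p was under 0.05 for 4233. These shares of all tested genes are the background for every count of list members below. Changed genes had a median absolute log2 fold change of 0.86, and 353 of them passed an absolute value of 1, with 97 higher and 256 lower. The 2 libraries of one genotype lay wholly above or below those of the other in 949 of the 952 genes, and in 8025 of all 14279 tested. Over all tested genes the median log2 fold change was -0.0003. Leaving out genes that share over 10% of their sequence with another gene left 849 changed genes, an alternative chosen after seeing the data.

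**Figure D1:**
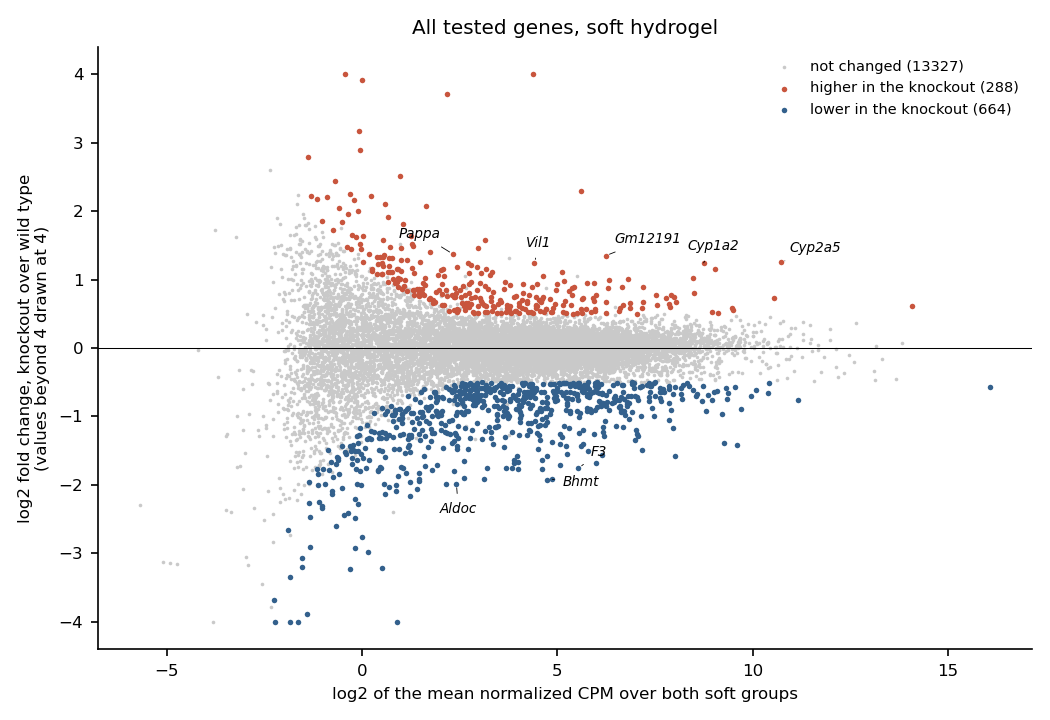
Log2 fold change of knockout over wild type on the soft hydrogel against the log2 of the mean normalized CPM, 1 point per tested gene, with 288 genes higher in the knockout in red, 664 lower in blue and the rest in grey (values past 4 drawn at 4). Most changed genes lie within a log2 value of 2 of zero, and more lie below zero than above it.

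The targeted genes fell in both knockout libraries. Yap1 (ENSMUSG00000053110; chromosome 9, 7932000 to 8004597, minus strand as deposited) was at 99.8 and 95.5 CPM in wild type and at 29.2 and 31.8 CPM in the knockout. The knockout level was 3.21-fold lower, with a log2 fold change of -1.68 (SE 0.0643, adjusted p = 2.44e-12). Wwtr1 (ENSMUSG00000027803; chromosome 3, 57363070 to 57483331, minus strand as deposited) was at 42.5 and 41.5 CPM in wild type and at 16.002 and 16.6 CPM in the knockout, 2.58-fold lower (log2 -1.37, SE 0.0784, adjusted p = 4.32e-10). Counts are per gene and not per exon, so the part of either gene that Cre removes cannot be seen apart from the rest, and fewer cells with the transcript cannot be told apart from less transcript per cell. The genome build behind the deposited positions was not settled (the labels name mm9).

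Among the TEAD genes, which encode the DNA-binding partners, Tead1 was the most abundant per length in wild type, at 5.08 RPKM (CPM per kilobase of gene), against 1.05 to 1.29 for Tead2, Tead3 and Tead4. Tead2 fell, from 5.12 and 4.89 CPM to 2.97 and 2.24 CPM (log2 -0.93, SE 0.186, adjusted p = 0.00135). Tead1 was at 65.9 and 71.8 CPM in wild type and at 54.1 and 51.9 CPM in the knockout, a log2 difference of -0.38 that stayed below the threshold of size. In Tead3 and Tead4 the libraries of the 2 genotypes overlapped.

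Because YAP and TAZ reach DNA through TEAD factors, promoters were searched for the TEAD core letters GGAATG and their reverse complement CATTCC, on both strands, from 250 bases before to 50 after each RefSeq start (GRCm38.p6). A promoter was matched for 14 of the 21 tested YAP/TAZ target genes. Of their 15 promoters 8 held the motif (53.3%), compared with 115 of 634 promoters of genes that fell (18.1%), 31 of 241 of genes that rose (12.9%) and 1650 of all 13248 (12.5%, for 10329 genes). These are shares of letters, not of bound sites. The target list was drawn up as genes of YAP and TAZ, so its share is not independent evidence. Below are the 250 bases before the start for the target genes that fell most among those with the motif, and for Ptpn14, the one target gene that rose, with the motif in capitals. Ccn1 (chr3:145649986-145650235, minus strand) holds it 103 bases before the start, Ankrd1 (chr19:36119845-36120094, minus strand) 210 and 123 bases, Ajuba (chr14:54577662-54577911, minus strand) 186 and 164 bases, Amotl2 (chr9:102717554-102717803, plus strand) 65 bases and Ptpn14 (chr1:189728018-189728267, plus strand) 146 bases before it.
Ccn1: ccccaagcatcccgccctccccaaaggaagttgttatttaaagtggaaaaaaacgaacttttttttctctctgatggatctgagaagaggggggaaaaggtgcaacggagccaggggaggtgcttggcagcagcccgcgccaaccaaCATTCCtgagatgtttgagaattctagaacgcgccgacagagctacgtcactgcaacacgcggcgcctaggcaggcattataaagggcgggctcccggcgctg
Ankrd1: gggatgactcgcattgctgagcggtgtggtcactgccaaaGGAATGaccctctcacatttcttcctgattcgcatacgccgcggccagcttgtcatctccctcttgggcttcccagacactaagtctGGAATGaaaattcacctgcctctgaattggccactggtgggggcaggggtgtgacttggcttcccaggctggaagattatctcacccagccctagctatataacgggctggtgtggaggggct
Ajuba: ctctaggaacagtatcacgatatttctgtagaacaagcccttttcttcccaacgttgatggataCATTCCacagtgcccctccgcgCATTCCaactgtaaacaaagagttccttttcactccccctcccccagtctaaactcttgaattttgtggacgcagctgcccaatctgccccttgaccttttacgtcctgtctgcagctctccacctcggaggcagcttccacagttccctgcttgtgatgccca
Amotl2: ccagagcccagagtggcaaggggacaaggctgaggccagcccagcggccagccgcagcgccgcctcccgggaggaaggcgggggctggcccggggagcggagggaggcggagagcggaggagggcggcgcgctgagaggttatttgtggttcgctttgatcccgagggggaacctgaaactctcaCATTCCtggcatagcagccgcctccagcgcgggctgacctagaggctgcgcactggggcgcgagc
Ptpn14: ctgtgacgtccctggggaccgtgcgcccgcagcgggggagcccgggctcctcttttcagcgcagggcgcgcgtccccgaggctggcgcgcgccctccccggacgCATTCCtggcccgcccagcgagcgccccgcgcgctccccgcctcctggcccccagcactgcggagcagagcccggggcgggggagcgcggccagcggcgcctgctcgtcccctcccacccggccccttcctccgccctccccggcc

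The same letters were found in genes with opposite responses, since Ptpn14 rose and the other 4 fell. They were found in 0 of 7 periportal promoters, 0 of 20 promoters of cholesterol synthesis genes and 2 of 19 lipogenic promoters (10.5%), groups whose changes are described further on. The AP-1 letters TGANTCA, where N is any base, were in 1 of the 15 target promoters (6.67%), in 9.31% of promoters of genes that fell, in 6.22% of those of genes that rose and in 5.54% of all.

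Of 23 YAP/TAZ target genes listed, 21 were tested. On the soft gel 12 fell and 1 rose, and their median log2 fold change was -0.87. Rbms3 and Foxf2 had too few counts to test. The list was assembled with earlier results of these data known, so its direction is not independent evidence.

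The secreted matricellular targets were among the clearest falls. Ccn1 (CYR61), a ligand of integrins, was at 374 and 398 CPM in wild type and at 123 and 136 CPM in the knockout, 2.99-fold lower (log2 -1.58, SE 0.0476, adjusted p = 1.4e-13). Ccn2 (CTGF) was at 41.7 and 38.4 CPM and at 14.3 and 12.4 CPM, also 2.99-fold lower (log2 -1.58, SE 0.0721, adjusted p = 2.36e-11). Both pairs of libraries were far apart. Ankrd1, a nuclear ankyrin repeat protein, went from 23.1 and 22.2 CPM to 6.83 and 7.36 CPM (log2 -1.68, SE 0.0819, adjusted p = 4.67e-11). F3, which encodes tissue factor and starts the coagulation cascade, went from 72.5 and 71.1 CPM to 21.2 in both knockout libraries (log2 -1.76, SE 0.0557, adjusted p = 1.84e-13). Tgfb2, a ligand of the TGF-beta receptors that overlaps a gene on the other strand, went from 14.7 and 12.6 CPM to 3.63 in both (log2 -1.92, SE 0.124, adjusted p = 2.3e-09).

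The other targets that fell span adaptors, kinases and membrane proteins. Fjx1 (log2 -1.95), Ajuba, a LIM adaptor that restrains LATS kinases (-1.502), and Amotl2, an angiomotin (-1.47), fell most among them. Igfbp3, a carrier of insulin-like growth factors (-1.31), Myof, a membrane repair protein (-1.07), Nuak2, a kinase acting on myosin phosphatase (-0.87), and Crim1 (-0.65) followed.

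Ptpn14 encodes a phosphatase that binds YAP and restrains it, and it moved the other way. It was at 52.4 and 55.0 CPM in wild type and at 106 and 107 CPM in the knockout, 1.98-fold higher (log2 0.99, SE 0.0542, adjusted p = 2.53e-10). The remaining 8 targets did not pass. Lats2 (log2 -0.46) and Asap1 (-0.23) had adjusted p-values of 0.00362 and 0.0182 and missed the threshold of size, Nt5e was at -0.13 and Arhgef17 at -0.78 (adjusted p = 0.352). Axl, Dock5, Gadd45a and Ccdc80 lay between 0.07 and 0.17 with overlapping libraries.

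**Figure D2:**
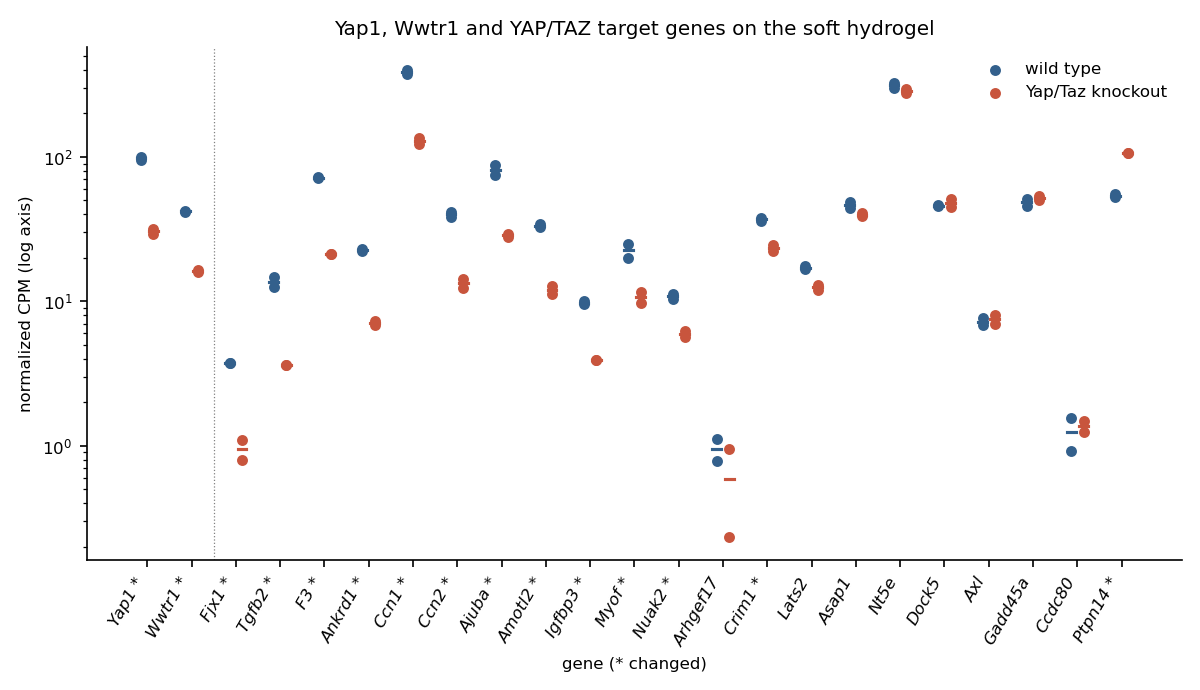
Normalized CPM on a log axis of Yap1, Wwtr1 and the 21 tested YAP/TAZ target genes on the soft hydrogel, 1 point per library (2 wild type in blue, 2 knockout in red), with a dash at each group mean and an asterisk at changed genes. Replicates sit close together in the abundant genes, 12 targets are lower in the knockout and Ptpn14 is higher.

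Of 21 genes of the Hippo pathway upstream of YAP and TAZ, 6 fell and 1 rose (median log2 fold change -0.08). All 7 encode adaptors or regulators rather than the core kinases. Frmd6, a FERM-domain protein upstream of the kinases that shares 14.7% of its sequence windows with other genes, went from 33.05 and 35.99 CPM to 18.1 and 19.4 CPM (log2 -0.88, SE 0.0777, adjusted p = 1.29e-07). Wwc1 (KIBRA), Wwc2 and Rassf1 fell by 0.69, 0.51 and 0.80 on the log2 scale. Stk3, which encodes the kinase MST2, was at 19.03 and 15.9 CPM in wild type and at 17.4 and 16.02 CPM in the knockout, overlapping.

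Genes of the contractile cytoskeleton fell in part. Of 35 actin and focal adhesion genes 8 fell and 1 rose (Acta2, smooth muscle actin, log2 0.92), with a median log2 fold change of -0.24. Actn1, an actin cross-linker, went from 245 and 258 CPM to 166 in both knockout libraries (log2 -0.60, SE 0.0434, adjusted p = 1.01e-08). Ezr, which ties actin to the membrane, went from 66.1 in both to 42.5 and 40.8 CPM (-0.66), and Cnn2, a calponin, from 8.55 and 9.72 to 4.84 and 5.42 CPM (-0.83). Actg1 fell by 0.57 on the log2 scale but shares 55.7% of its windows with other genes. Actb, the most abundant of the group, was at 3715 and 3932 CPM against 3022 and 2999 CPM, a log2 difference of -0.34 below the threshold of size. Of 11 tubulin genes 1 changed (Tubb6, lower, log2 -0.51), 9.09% against 6.67% of all tested genes.

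Matrix and protease genes moved in both directions. Of 24 matrix and integrin genes 5 fell and 2 rose (median -0.14). Thbs1, a secreted activator of latent TGF-beta, went from 26.5 and 22.5 CPM to 7.34 and 7.16 CPM (log2 -1.77, SE 0.0984, adjusted p = 3.01e-10). Spp1 (osteopontin) went from 542 and 507 to 310 and 306 CPM (log2 -0.77, SE 0.0426, adjusted p = 2.87e-10), and Col12a1 fell by 1.20 on the log2 scale. Lamb3, a laminin chain, was at -0.97 and Itgb6, an integrin subunit, at -1.74, both lower. The 2 that rose were the fibrillar collagens Col1a2 (0.94) and Col3a1 (0.53), both also stellate cell markers, whereas Col1a1 overlapped at 3.85 and 4.05 against 4.53 and 3.38 CPM.

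Of 15 matrix proteases and inhibitors 4 fell and 1 rose (Serpine2, protease nexin 1, log2 1.15). Plaur, the urokinase receptor, went from 55.5 and 61.1 to 33.3 and 35.7 CPM (-0.76). Adam8 fell by 0.71, and Timp1, with an overlapping gene opposite, by 0.53 with an adjusted p of 0.0405. Of 15 biliary and progenitor genes 4 fell, namely Lcn2, described below, Prom1 (log2 -1.10), Klf5 (-1.03) and Krt19, a duct cell keratin at 1.81 and 2.44 against 0.429 and 0.845 CPM (-1.75). Anxa3, an annexin, went from 126 and 122 to 68.7 and 67.0 CPM (log2 -0.87), Anxa1 rose (1.31), and Krt8, a hepatocyte keratin, was at a log2 difference of -0.43. Anxa3 and Anxa1 were the 2 changed genes among 17 keratin, annexin and S100 genes, 11.8% against 6.67% of all tested genes. Piezo1, a stretch-gated calcium channel, went from 22.4 and 24.9 to 14.8 and 14.9 CPM (-0.67), and with Cavin1, a caveolar protein (-0.54), it fell among 21 genes of mechanosensing and calcium. No other member of that list changed, and the share was 9.52% against 6.67% of all tested genes.

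Cell cycle transcripts were at low levels in wild type, and part of them fell. Of 24 genes of mitosis 11 fell and their median log2 fold change was -0.99, and of 28 genes of DNA replication 9 fell with a median of -0.38. The summed level of the mitosis list was 63.9 and 61.2 CPM in wild type and 37.5 and 34.1 CPM in the knockout. Mki67, the gene of the proliferation antigen Ki-67, was at 4.39 and 4.72 CPM against 2.11 and 2.49 CPM (log2 -0.99, SE 0.187, adjusted p = 0.000811). Top2a, the topoisomerase of dividing cells, went from 6.59 and 6.05 to 2.30 and 3.13 CPM (-1.24). The counts depend on the tool and on single libraries, since 6 mitosis genes were called lower by DESeq2 on all 8 libraries and by edgeR without knockout replicate 2, and DESeq2 on the 4 soft libraries called 5 of each list.

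Better measured genes of entry into the cycle fell as well. Ccnd1 (cyclin D1), which shares its position with a gene on the other strand, went from 18.5 and 21.3 to 8.43 and 8.50 CPM (log2 -1.23, SE 0.104, adjusted p = 7.55e-08). Myc went from 107 and 111 to 62.5 and 68.0 CPM (log2 -0.74, SE 0.0538, adjusted p = 1.05e-08). Uhrf1, which guides maintenance DNA methylation, fell by 1.21, and the cyclin E gene Ccne1 by 0.77. Of 13 genes of G1 cyclins, inhibitors and Myc 3 fell, the third being Ccnd3 (-0.53). Of 21 genes of the p53 pathway the 2 that fell were Plk2 (log2 -1.01) and Btg2 (-0.72), while Trp53 itself was at -0.22. These 2 were the only changed genes of that list, 9.52% against 6.67% of all tested genes.

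Growth factor and immediate early genes showed selective falls. Of 18 genes of the EGF receptor system 5 fell and 1 rose. Errfi1 (MIG6), a feedback inhibitor of the receptor, went from 321 and 305 to 143 and 158 CPM (log2 -1.06, SE 0.0511, adjusted p = 4.29e-11), and the ligand gene Hbegf from 16.3 and 19.2 to 8.55 and 9.45 CPM (-0.98). Dusp5 fell by 0.73 while its relative Dusp4 rose by 0.64, both being phosphatases that act on ERK. The other 2 that fell were Erbb2 (-0.89) and Spry1, an inhibitor of receptor signalling (-2.21). Egfr itself was at -0.41. Of 16 AP-1 and immediate early genes 3 fell and 1 rose. Fosl1 (FRA-1), with an overlapping gene opposite, went from 19.3 and 24.7 to 10.8 and 10.7 CPM (log2 -1.02, SE 0.118, adjusted p = 3.93e-06), Fosb fell by 0.93, Egr1 by 0.58, and Klf4 rose by 0.52.

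Of 22 genes of TGF-beta and BMP signalling 5 fell and 1 rose, 27.3% against 6.67% of all tested genes. Gdf15, a stress-induced cytokine, went from 121 and 138 to 68.7 and 67.1 CPM (log2 -0.93, SE 0.0599, adjusted p = 2.02e-09). Bmp4 went from 6.28 and 8.39 to 2.65 and 3.03 CPM (-1.36), Fst, the gene of the activin inhibitor follistatin, fell by 0.66, Bmper by 1.502 and Inhba by 0.52, and Bmp2 rose by 0.74. Nrg1, the ligand of ERBB3 and ERBB4, went from 42.6 and 41.9 to 12.2 and 9.75 CPM (log2 -1.93, SE 0.0981, adjusted p = 8.52e-11) and was among the 10 largest falls of genes averaging 100 counts or more without overlap.

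Chemokine and interferon response genes fell in part. Of 19 chemokine and NF-kappaB response genes 6 fell, with a median log2 fold change of -0.27. Ccl2, which recruits monocytes, went from 183 and 187 to 78.5 and 75.8 CPM (log2 -1.26, SE 0.0418, adjusted p = 3.66e-13). Ccl7 fell by 0.80, Tnfaip3 by 0.77 and Cxcl1 by 0.66 on the log2 scale. Of 24 interferon response and antigen presentation genes 9 fell, with a median of -0.42. Isg15, a ubiquitin-like modifier, went from 33.3 and 34.5 to 14.2 and 12.3 CPM (log2 -1.35, SE 0.0889, adjusted p = 2.94e-09). Ifit1 went from 25.2 and 27.2 to 10.9 in both (-1.26), and Rsad2 (viperin) from 18.2 and 17.9 to 7.81 and 6.81 CPM (-1.30).

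Hepatocyte genes were grouped by their place in the liver lobule, where cells near the portal vein carry out urea synthesis and amino acid breakdown and cells near the central vein express drug-metabolizing P450 enzymes under Wnt signalling. Of 13 periportal genes 11 fell, with Sds at -0.52 (adjusted p = 0.487) and Sdsl at 0.02. Their median log2 fold change was -0.75. Of 14 pericentral and Wnt genes 3 rose, with a median of 0.17. Where in the lobule the plated cells came from was not tested.

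Cyp2f2, a periportal P450, went from 179 in both wild-type libraries to 76.7 and 79.9 CPM (log2 -1.19, SE 0.0479, adjusted p = 4.82e-12). Arg1, the last enzyme of the urea cycle, went from 17.8 and 18.8 to 6.91 and 6.47 CPM (log2 -1.45, SE 0.139, adjusted p = 3.81e-07). Cps1, its first enzyme, went from 92.2 and 86.1 to 50.7 and 48.6 CPM (-0.85). Aldh1b1 fell by 1.16 and Gls2, a liver glutaminase that overlaps a gene on the other strand, by 0.89. Cdh1 (E-cadherin), also periportal, went from 347 and 341 to 231 and 229 CPM (log2 -0.58, SE 0.0389, adjusted p = 3.45e-09).

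On the pericentral side Cyp1a2 went from 248 and 261 to 590 and 618 CPM, 2.37-fold higher (log2 1.25, SE 0.0437, adjusted p = 8.25e-13). Cyp2e1, the ethanol-oxidizing P450, went from 246 and 223 to 484 and 470 CPM, 2.03-fold higher (log2 1.02, SE 0.047, adjusted p = 2.51e-11). Lect2, a hepatokine, rose by 0.65. Glul, the glutamine synthetase of the cells next to the central vein, was at 166 and 161 against 196 and 191 CPM, a log2 difference of 0.24 below the threshold of size, and the Wnt targets Axin2 and Lgr5 had 5 counts or fewer in every soft library. Ctnnb1 (beta-catenin) was at 0.08.

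**Figure D3:**
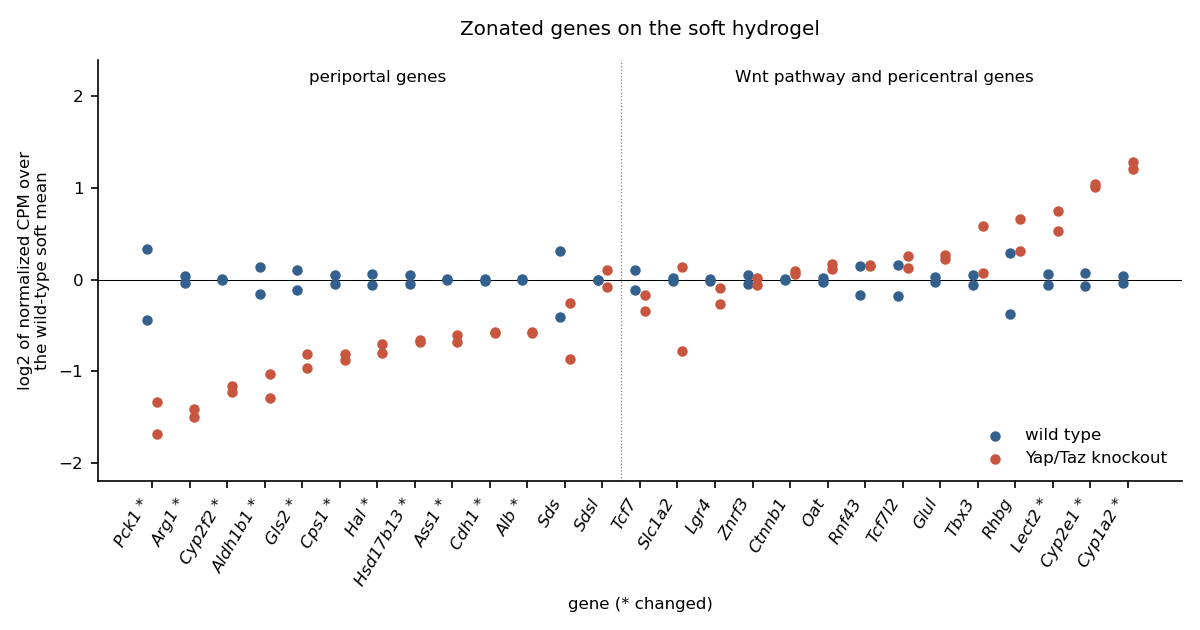
Log2 of normalized CPM over the wild-type soft mean for 13 periportal and 14 pericentral or Wnt genes, 1 point per library (wild type in blue, knockout in red), with an asterisk at changed genes. The knockout points of 11 periportal genes lie below those of wild type, and Lect2, Cyp2e1 and Cyp1a2 lie above.

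The wider list of urea cycle and amino acid breakdown genes showed the same direction. Of 28 urea cycle and amino acid genes 11 fell and 1 rose, with a median log2 fold change of -0.43, and 6 of the 28 are also in the periportal list. Fah, the last enzyme of tyrosine breakdown, went from 72.4 and 68.0 to 32.6 and 28.3 CPM (log2 -1.20, SE 0.0696, adjusted p = 4.94e-10). Uroc1, of histidine breakdown, went from 48.8 and 50.8 to 24.4 and 20.4 CPM (-1.14), and Aass, of lysine breakdown, fell by 1.19. Bhmt, which is outside this list and remethylates homocysteine from betaine, went from 46.3 in both to 12.4 and 12.1 CPM, 3.78-fold lower (log2 -1.92, SE 0.0816, adjusted p = 9.26e-12). The 1 member of the list that rose was Tdo2, which opens tryptophan breakdown, from 81.0 and 79.98 to 129 and 120 CPM (0.63).

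Genes of fatty acid and triglyceride synthesis fell in part. Of 18 genes of de novo lipogenesis 8 fell, with a median log2 fold change of -0.48 and 4 members with a positive value. Fasn, the fatty acid synthase, was at 1071 and 1173.5 CPM in wild type and at 408 and 429 CPM in the knockout, 2.68-fold lower (log2 -1.42, SE 0.0443, adjusted p = 1.84e-13). Gpam, which starts triglyceride synthesis, went from 191 and 177 to 72.0 and 72.8 CPM (log2 -1.35, SE 0.0511, adjusted p = 2.36e-12), and Thrsp (Spot 14) from 31.7 and 31.3 to 11.8 and 15.02 CPM (-1.24). Srebf1, the gene of the transcription factor SREBP1, went from 162 and 182 to 117 and 118 CPM (log2 -0.55, SE 0.0549, adjusted p = 6.69e-07), close to the threshold of size.

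Other steps of the same pathway did not pass. Acly, which supplies acetyl-CoA, was at 883 and 901 against 840 and 866 CPM, a log2 difference of -0.06 (95% interval -0.14 to 0.01). Acaca, the next enzyme, whose windows are 49.6% shared, was at 306 and 297 against 331 and 352 CPM (0.18, adjusted p = 0.0108, below the threshold of size). Scd1, the stearoyl-CoA desaturase, was at 15142 and 14734 against 10994 and 10813 CPM, a log2 difference of -0.45 with an interval of -0.50 to -0.41.

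All 25 genes of cholesterol synthesis and SREBP2 targets had a negative log2 fold change, and 10 fell, with a median of -0.46. Insig1, which retains the SREBP precursors in the endoplasmic reticulum, went from 141 in both to 63.1 and 63.2 CPM (log2 -1.16, SE 0.0574, adjusted p = 6e-11). Of the enzymes, Mvd fell by 0.87 and Pmvk by 0.83. Hmgcs1, an early enzyme, was at -0.34 and Srebf2, the gene of SREBP2, at -0.17, both under the threshold of size.

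Genes under the oxysterol receptor LXR, a regulator of cholesterol efflux and lipogenesis, were counted on the soft gel as well. Of 13 tested 2 fell, Srebf1 and Pltp, and the median was -0.13. Pltp, the phospholipid transfer protein that overlaps a gene on the other strand, went from 43.4 and 55.8 to 19.7 and 20.5 CPM (log2 -1.30, SE 0.0953, adjusted p = 1.13e-08). The LXR-alpha gene Nr1h3 was at 50.7 and 56.8 against 60.6 and 59.4 CPM (0.16, interval 0.03 to 0.30). Of the efflux transporters, Abca1 was at -0.23 (interval -0.34 to -0.11), with an adjusted p under 0.05 but below the threshold of size. Abcg1 was at 0.35 (-0.11 to 0.81), Abcg5 at -0.35 (-0.89 to 0.20) and Abcg8 at 0.08 (-0.36 to 0.53). Abcg1, Abcg5 and Abcg8 lay below 5 CPM in every soft library, so these intervals are wide, and a p that misses the threshold does not show that the genotypes were alike. By RT-qPCR the paper reports modestly higher Abca1 and Abcg5 in Yap/Taz knockout hepatocytes, on a substrate that its legend does not state.

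Of 20 bile acid genes 6 fell and 2 rose, which were Abcc4 and Slco1a1 (log2 0.83). Slc10a1 (NTCP), the main uptake transporter, went from 30.3 and 32.7 to 15.8 and 12.5 CPM (log2 -1.14, SE 0.108, adjusted p = 3.44e-07), and Slco1b2, an organic anion transporter, from 18.5 and 17.5 to 8.59 and 9.15 CPM (-1.03). Slco1a4 fell by 0.98 and Akr1d1, a reductase of bile acid synthesis, by 0.91. Abcc4, an efflux pump at the blood side of the cell, rose from 194 and 182 to 315 and 316 CPM (log2 0.75, SE 0.0441, adjusted p = 6.57e-10). Cyp8b1 was at -0.21 (interval -0.37 to -0.06), and Cyp7a1, the rate-limiting enzyme of bile acid synthesis, had 0 to 2 counts across the libraries, too few to test.

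Of 26 cytochromes P450 8 rose, against 2.02% of all genes, and 3 fell, which were Cyp2f2, Cyp2a12 (log2 -0.77) and Cyp4f14 (-0.62). Cyp2a5, which oxidizes coumarin and nicotine and shares 31.2% of its windows with other genes, went from 1002 in both to 2365.5 and 2402 CPM (log2 1.25, SE 0.0334, adjusted p = 3.5e-14). Cyp1a1, an aryl hydrocarbon receptor target, went from 2.89 and 2.28 to 6.09 and 5.52 CPM (1.15). Gstm3, a glutathione transferase with 24.8% shared windows, rose from 320 and 335 to 682 and 777 CPM (1.16). It was the 1 of 28 phase II genes that rose, beside 3 that fell: Sult1a1 (-1.67), Nnmt (-0.98) and Ugt2b36 (-0.79).

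NRF2 target genes moved in both directions, with 4 of 18 higher and 2 lower. Osgin1, an oxidative stress response gene, fell from 853 and 934 to 330 and 350 CPM (log2 -1.39, SE 0.0438, adjusted p = 1.84e-13). Cbr3, a carbonyl reductase, rose by 0.89 and Nqo1, a quinone reductase, by 0.58, with Slc7a11, the cystine transporter, at 0.53 and Abcc4 making up the other risers. Hmox1, heme oxygenase, fell by 0.53, while Nfe2l2, the gene of NRF2, was at -0.22. Trib3 and Ddit3 (CHOP), both of the integrated stress response, rose by 0.90 and 0.53. They were the 2 of 21 unfolded protein response genes that changed, 9.52% against 6.67% of all tested genes.

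In the glucose metabolism list 3 of 26 genes rose and 2 fell, 19.2% against 6.67% of all tested genes. G6pc, the phosphatase that releases glucose, rose from 53.1 and 58.0 to 99.9 and 103 CPM (log2 0.87, SE 0.0631, adjusted p = 9.56e-09). Aldoc, a brain-type aldolase outside that list, went from 8.20 and 8.78 to 1.72 and 2.64 CPM. It was the largest fall among genes that averaged 100 counts or more without overlap (log2 -1.98, SE 0.195, adjusted p = 5.41e-07). Pck1, of gluconeogenesis, fell by 1.51 on the log2 scale. The call of Gapdh as higher rested on 1 library, with 456 and 277 counts in wild type and 3696 and 322 in the knockout, and its log2 fold change was -0.05 without knockout replicate 1. Igfbp1, a carrier of insulin-like growth factors, rose from 1119 and 1151.5 to 1873 and 1880 CPM (0.72), and Socs2, an inhibitor of growth hormone signalling, fell from 15.5 and 15.4 to 6.91 and 7.16 CPM (-1.14). Igfbp1 and Socs2 were the 2 changed genes among 16 of the IGF, insulin and growth hormone axis, 12.5% against 6.67% of all tested genes. Of 20 fatty acid oxidation genes 1 rose and 1 fell, Cyp4a14 (0.55) and Ehhadh (-0.75), and Cpt1a was at 0.08. The changed share was 10%, against 6.67% of all tested genes. Cyp4a14 lost its call without any 1 of the soft libraries and with DESeq2 (adjusted p = 0.111 on all 8 libraries).

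Among secreted plasma proteins Alb (albumin) made up 8.01% and 8.08% of all counts in wild type and 5.61% in both knockout libraries, at 81619 and 82227 against 55125 and 54830 CPM (log2 -0.58, SE 0.0142, adjusted p = 1.86e-14). Of 39 plasma protein genes 6 fell and 1 rose, and the median was -0.20. Fga, a fibrinogen chain, went from 1651 and 1663 to 1056 and 1052 CPM (-0.65), Apoa4 fell by 0.74 and C9 by 0.72, while Serpina6, corticosteroid-binding globulin, rose by 0.75. Of 21 acute-phase genes 7 fell, with a median of -0.28. Hp (haptoglobin) went from 2878.5 and 2907 to 1698 and 1704 CPM (log2 -0.77, SE 0.0285, adjusted p = 1.88e-12), and Serpina3n from 633 and 626 to 409 and 396 CPM (-0.64). Saa1 was at -0.11 (adjusted p = 0.0503).

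The transcription factor genes that define hepatocyte identity were counted too. None of 15 hepatocyte transcription factor genes and none of 18 nuclear receptors passed the edgeR thresholds, and DESeq2 called 0 as well, with medians of 0.15 and 0.006. At an unadjusted p under 0.05, 5 of the former were higher and 1 lower, and 6 of the latter were higher and 1 lower. Hnf4a was at 379 and 365 against 426 and 421 CPM, a log2 difference of 0.19 (interval 0.10 to 0.27). Ribosomal protein genes (26), oxidative phosphorylation genes (27) and clock genes (16) likewise held no changed member, with medians of 0.14, 0.09 and -0.02, by edgeR, and 0 by DESeq2. At an unadjusted p under 0.05, 19 ribosomal, 17 oxidative phosphorylation and 3 clock genes were higher and 0, 0 and 2 lower, and all 26 ribosomal values were above 0.

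Markers of macrophages, endothelial and stellate cells had higher summed levels in the knockout, and cholangiocyte markers a lower one. The summed level of 12 Kupffer cell and macrophage markers was 86.2 and 84.5 CPM in wild type and 121 and 125 CPM in the knockout, with 5 of 11 tested markers higher and a median log2 fold change of 0.65. Endothelial markers summed to 110 and 110 against 138 and 140 CPM (3 of 12 higher, median 0.40), and stellate and fibroblast markers to 36.9 and 37.1 against 51.4 and 52.4 CPM (3 of 9 higher, median 0.53). Among them Marco, a macrophage scavenger receptor, rose by 1.10, Csf1r, the macrophage growth factor receptor, by 0.85, Ptprb, an endothelial phosphatase, by 0.85, and Dcn (decorin) by 0.57. The other macrophage markers that rose were C1qa (0.88), C1qc (0.80) and Lyz2 (0.59), and the other endothelial ones were Clec4g (1.14) and Tek (0.72). Without wild-type replicate 1, 5 endothelial and 1 stellate marker rose, and without knockout replicate 1, 1 stellate marker. Lymphocyte and neutrophil markers summed to at most 3.28 CPM, with 2 of 12 at 0 and 11 under 10 counts in every soft library. Cholangiocyte markers summed to 702 and 672 against 482 and 487 CPM, mostly Spp1. Among 8 tested, 2 were lower and 1 higher (Aqp1, log2 0.64), with a median of -0.12. Krt7, Cftr and Tff2 had at most 2 counts in any soft library.

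These sums are small beside those of hepatocyte markers, at 90810 and 91360 against 64250 and 63750 CPM, mostly Alb. The fall of this sum is therefore mainly that of Alb and does not describe the hepatocyte markers as a group. Of the 10 tested, 2 fell and 1 rose, 4 had a positive log2 value, and the list median was -0.08. The part of other cells in the rises, including Col1a2 and Col3a1, was not tested.

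Among the 10 largest rises and the 10 largest falls under the same conditions several genes were in no list above. Beside Cyp2a5 and Cyp1a2 the rises included Pappa, a protease of IGF-binding proteins, from 2.77 and 2.83 to 6.83 and 7.71 CPM (log2 1.37, SE 0.182, adjusted p = 2.04e-05), and Vil1 (villin), an actin bundler of microvilli that overlaps a gene on the other strand, from 12.4 and 13.1 to 30.99 and 28.9 CPM (log2 1.24, SE 0.112, adjusted p = 1.97e-07). Hhipl1 (1.24), Dpysl3 (1.21) and Fam171b (1.19) followed. The remaining 3 were Gm12191, Rpl30-ps10 and Rps27a-ps2, whose sequence windows are shared with other genes at 100%, 95.4% and 93.6%, so their counts are uncertain. The largest falls also held Cyp17a1, a steroid hydroxylase, from 10.6 and 8.78 to 3.01 and 2.14 CPM (-1.90), Dab1, an adaptor of reelin receptors, from 37.3 and 37.9 to 11.3 and 10.8 CPM (-1.76), Osbpl3, an oxysterol-binding protein (-1.76), and Selenbp2 (-1.80), whose windows are 42.3% shared.

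**Figure D4:**
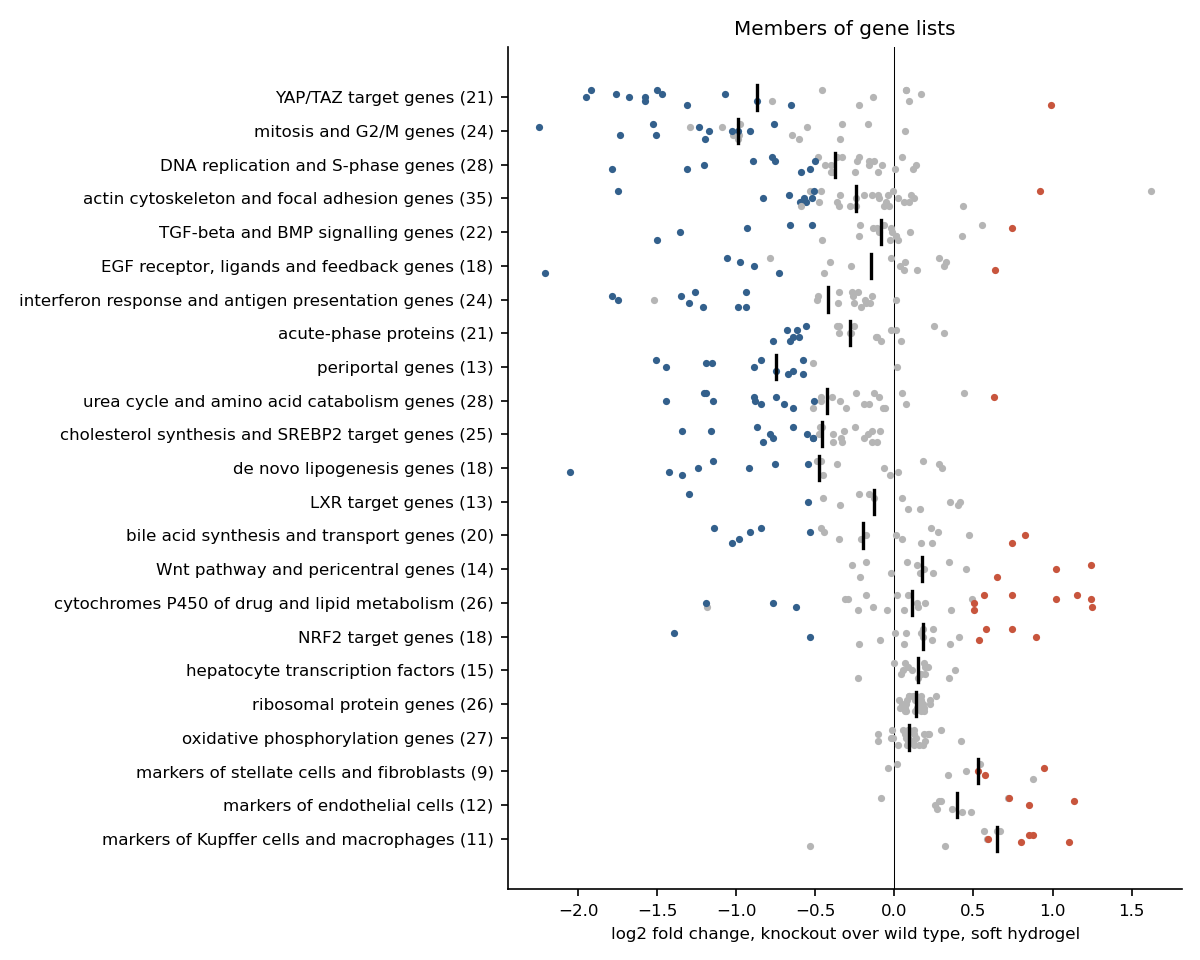
Log2 fold change of knockout over wild type on the soft hydrogel for the tested members of 23 gene lists (number of members in parentheses), 1 point per gene, with changed genes in red (higher) or blue (lower), others in grey and a black bar at the list median. Medians lie lowest for mitosis (-0.99), YAP/TAZ target (-0.87) and periportal genes (-0.75), near zero for hepatocyte transcription factors, ribosomal and oxidative phosphorylation genes, and highest for macrophage markers (0.65).

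To ask how the response differed with stiffness, the same contrast was taken on the stiff gel (20 kPa), which shares no library with the soft one. There 4103 genes changed, 28.7% of those tested, and the difference of the knockout effect between the gels, the interaction of the same fit, was called for 2405 genes (16.8%). Of the 952 genes changed on the soft gel 766 also changed in the same direction on the stiff gel, which is 80.5% of the soft and 18.7% of the stiff changes. A further 16 changed in the opposite direction and 170 were not called there. The interaction was called for 478 of the 952, of which 403 had the larger effect on the stiff gel and 75 a smaller or opposite one.

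YAP/TAZ target genes had the larger effect on the stiff gel, with a median log2 fold change of -2.43 against -0.87 and an interaction in 16 of 21. Ccn2 shows the pattern most plainly, with 399 and 402 CPM in the wild-type stiff libraries and 12.8 and 13.2 CPM in the knockout stiff libraries, next to 14.3 and 12.4 CPM in the knockout on the soft gel. The log2 effect on the stiff gel was -4.94, and the difference between the gels was 3.36 (SE 0.103, adjusted p = 7.07e-14). Ankrd1 differed by 3.58 (SE 0.122, adjusted p = 3.66e-13). All 28 replication genes and 15 of 24 mitosis genes also had an interaction toward the stiff gel. Among genes that rose, Cpe (carboxypeptidase E) was at 48.6 and 46.0 CPM in wild type and 79.9 and 81.9 CPM in the knockout on the soft gel, and at 3.23 and 2.64 CPM in wild type on the stiff gel (difference -4.01).

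In the lipogenic and acute-phase lists the differences between the gels had the other sign, more negative on the soft gel, partly through rises on the stiff one. This sign was not particular to them, since of all 2405 interactions 1233 were more negative on the soft gel and 1172 more positive. In the bile acid list all 9 interactions were more negative on the soft gel, and in the P450 list 12 of 14. The lipogenesis list had a median of -0.48 on soft and of -0.008 on stiff gel, and its 7 interactions were all toward a more negative soft effect. Fasn was at 496 and 502 CPM in wild type and at 479 and 459 CPM in the knockout on the stiff gel, a log2 effect of -0.09, so that the wild-type soft libraries alone stood high (difference -1.33, SE 0.0621, adjusted p = 1.66e-11). Srebf1 differed by -0.79 (SE 0.0784, adjusted p = 3.63e-07), and Acly and Acaca, which did not pass on the soft gel, differed by -0.88 and -1.46 through a rise on the stiff gel. The acute-phase list had a median of -0.28 on soft and of 0.20 on stiff gel, and 9 of 21 members had an interaction, all more negative on the soft gel. Serpina3n differed by -0.63, Lrg1 by -0.51 and Saa4 by -1.18.

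Lcn2 (lipocalin 2), an iron-sequestering acute-phase protein, changed direction with the gel. It was at 226 and 224 CPM in wild type and 139 and 137 CPM in the knockout on the soft gel, and at 77.0 and 72.9 against 145 and 140 CPM on the stiff gel. The log2 effects were -0.70 (SE 0.047, adjusted p = 3.4e-09) and 0.93, and their difference was -1.63 (SE 0.0683, adjusted p = 4.84e-12). Adh1, the main hepatic alcohol dehydrogenase (chosen after its values were seen), went from 318 and 311 to 164 and 170 CPM on the soft gel (log2 -0.91) with 162 and 163 against 165 and 173 CPM on the stiff gel (difference -0.97, SE 0.0629, adjusted p = 1.44e-09). In each of Fasn, Lcn2 and Adh1 the knockout libraries of both gels lay within a similar range.

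Of the periportal genes 11 fell on the soft and 8 on the stiff gel, with medians of -0.75 and -0.76 and interactions in 4 of 13, of which 3 were larger on the stiff gel and 1 (Hsd17b13) on the soft. The difference between the gels was not called for Arg1 (log2 -1.45 and -1.39, interaction adjusted p = 0.879). Nor was it for Cps1 (-0.85 and -0.68, adjusted p = 0.177), Fah (-1.20 and -1.12, adjusted p = 0.598) or Gpam (-1.35 and -1.58, adjusted p = 0.0211, below the threshold of size).

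**Figure D5:**
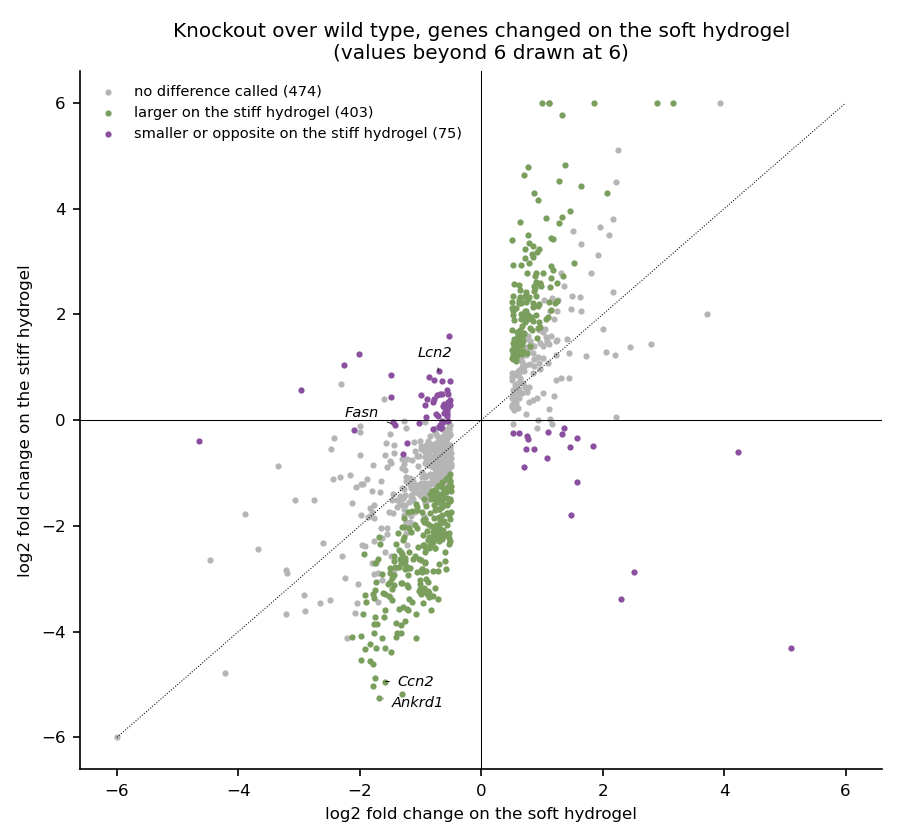
Log2 fold change of knockout over wild type on the stiff against the soft hydrogel for the 952 genes changed on the soft gel, with genes whose effect differed by the interaction in green (403, larger on the stiff gel) or purple (75, smaller or opposite on the stiff gel), the rest in grey and a dotted line at equal effects (values past 6 drawn at 6). Ccn2 and Ankrd1 lie far below the dotted line, Fasn near zero on the stiff axis and Lcn2 on its opposite side.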

How the data were processed

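RNA of mouse primary hepatocytes was sequenced as paired-end reads of poly-A selected libraries, which the authors aligned with HISAT2 (version 2.0.5) and counted per gene with featureCounts. The deposited table holds raw counts per gene for 8 libraries, without normalization, with gene lengths and positions. The genome build is named mm9 in the submitters' processing notes, but only 2.92% of gene starts lay within 1000 bases of a RefSeq GRCm38 start, and the build was not settled. The labels mention both directional and non-directional synthesis, so how strand entered the counting is not known, and genes that overlap on opposite strands may share reads.

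The tests were run with edgeR 4.0.16 under R 4.3.3 and limma 3.58.1 (filterByExpr by group, TMM with factors of 0.978 to 1.02, glmQLFit on all 8 libraries with a term per group, glmQLFTest). The fit had 4 residual degrees of freedom and a common biological coefficient of variation of 0.0542. Benjamini-Hochberg adjusted p-values ran over all 14279 tested genes. The study used DESeq2, which was an alternative here (1.42.0). Figures used matplotlib 3.10.9. Levels per length (RPKM) are CPM per kilobase of the deposited gene length. Other alternatives covered the scaling, the low-count filter, the fold threshold, the replicate number, robust empirical Bayes, the 4 soft libraries alone and each soft library left out.

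On simulated data edgeR recovered 90 of 100 genes changed by a log2 value of 1 between these groups, and 100 of 100 at a log2 value of 2, with 8 of the other genes called among 13964 tested. DESeq2 recovered 82 and 99, with 0 others. The changed genes were drawn only from those with a mean above 1 CPM, so recovery below that level was not simulated.

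The comparison and the gene lists were chosen with earlier results of these data known, so counts and medians of lists are descriptions. Named genes are Yap1 and Wwtr1, the YAP/TAZ targets, the first member of each list and its up to 4 largest changes averaging 100 counts or more without overlap of the genotypes, the 10 largest rises and falls under the same rule, genes with mouse primers in the study and the 5 largest interactions in each direction. Other genes named were chosen after their values were seen: Tead1 to Tead4, Wwc1, Wwc2, Rassf1, Acta2, Col1a2, Lamb3, Itgb6, Serpine2, Krt19, Prom1, Klf5, Anxa1, Erbb2, Spry1, Bmper, Inhba, Sds, Sdsl, Glul, Axin2, Lgr5, Tdo2, Slco1a1, Cyp2a12, Cyp4f14, Slc7a11, Hmox1, Pck1, Hsd17b13, Adh1, Lyz2, Clec4g, Tek, Krt7, Cftr, Tff2 and those called between the knockout gels. A gene's longest transcript was cut into windows of 64 bases, and those also found in another gene count as shared (98.8% of tested genes matched). Some members of the lists are counted but not reported here by name.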

Additional observations from a re-analysis of the deposited data

Results flagged for a closer look

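The knockout effect differed between the soft and the stiff gel in 2405 genes by the interaction of the edgeR fit, and the genes below stood out by the size or the direction of that difference, given as soft minus stiff on the log2 scale.

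Lcn2 (-1.63), Saa4 (-1.18) and Srebf1 (-0.79) had a negative value on the soft gel and a positive one on the stiff gel, and so did Fosb (-1.21). Fasn (-1.33), Slco1b2 (-0.97), Serpina3n (-0.63) and Lrg1 (-0.51) fell on the soft gel and lay between -0.153 and -0.015 on the stiff one. Ankrd1 (3.58) fell on both gels and more on the stiff one.

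Among genes higher in the knockout, Cpe (-4.01), Sema3c (-3.93) and Gt(ROSA)26Sor (-3.43) rose on both gels and more on the stiff one. Gt(ROSA)26Sor is the transcript of the locus that holds the reporter, at 8.90 and 8.50 CPM in wild type and 14.9 and 17.01 CPM in the knockout on the soft gel, and at 0.434 and 1.07 CPM in wild type on the stiff gel. It overlaps a gene on the other strand, and the part of the reporter in these counts was not tested.

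Several differences rest on genes whose sequence is shared with others, so that counting may have split reads between copies. They are Mup18 (10.98), Mup17 (9.41), Gapdh (5.68), Gm17222 (-6.13), Gm14303 (-3.36), Rpl30-ps10 (2.75) and Rps27a-ps2 (1.97). Mup17 had 40 and 14 counts in wild type and 2070 and 15 in the knockout on the soft gel, and Mup18 was at 14.98 and 0.0555 against 39.5 and 0 CPM. Olfr1372-ps1 (3.88) was at 2.35 and 1.44 CPM in wild type and 0.898 and 0.647 CPM in the knockout on the soft gel, and at 18.9 and 16.6 CPM in wild type on the stiff gel.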

How the results depend on the processing

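The 952 changed genes came to 353 (97 higher, 256 lower) at an absolute log2 fold change over 1, to 2624 (1068 and 1556) with no minimum and to 354 (70 and 284) when tested against 0.5 with glmTreat. In the same order the stiff comparison gave 2097, 7299 and 2651 genes, and the difference between the gels 1040 (553 more positive and 487 more negative on the soft gel), 4192 (2012 and 2180) and 1057 (552 and 505). Changed list members went from 207 to 75, 475 and 110. DESeq2 on the 4 soft libraries called 175 genes higher. Scaling by library size alone moved the median of all genes by 0.054 and the share of higher calls from 30.3% to 40%.

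Leaving out each soft library in turn gave 747 to 927 changed genes (202 to 274 higher, 545 to 653 lower), 4141 to 4171 on the stiff gel, 2153 to 2399 with a difference between the gels (1055 to 1243 and 1098 to 1156) and 192 to 211 list members. Over these, the soft log2 fold change ran from -0.708 (without knockout replicate 1) to 6.04 for Mup17 and from -0.052 (the same) to 3.12 for Gapdh. With a replicate block 895 genes changed (256 higher, 639 lower), 887 of them shared with the 952, with 4071 on the stiff gel, 2330 between the gels (1141 and 1189) and 201 list members. Wild type and knockout share only the numbers 1 and 2, and the correlation of same-numbered deviations on the soft gel was 0.179 over 10037 genes, so the block was not used.

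Of 149 named genes that changed, 147 kept their direction under every alternative run, and 125 kept their call under all but the stricter fold thresholds. Up to 16 alternatives were run for each gene. With the stricter fold thresholds left aside, 7 ended the call of Cyp4a14, 6 that of Timp1 and of Cavin1, and 5 that of Rpl30-ps10 and of Mup17. Rps27a-ps2 lost its call under 4, Tubb6, Ccnd3 and Gapdh under 3, and Srebf1, Col3a1, Adam8, E2f1 and Olfr1372-ps1 under 2. Of these genes all but Mup17 and Gapdh kept their direction. With 2 libraries a group, genes with few counts had wide intervals, such as Abcg1 (-0.11 to 0.81).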
